A study of Homo sapiens with 6 samples.

Results

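The BCL2 family decides whether the outer membrane of the mitochondrion stays intact, and the transcripts of 10 of its genes were followed here in U87MG cells with and without RSL3. The genes were chosen by symbol, and all 10 were found among the 65988 Ensembl gene identifiers of the counts. There were 4 survival genes, BCL2L1, BCL2L2, MCL1 and BCL2, and 6 killer genes, BAK1, BAD, BID, BIK, BMF and BCL2L11. U87MG is an established human glioblastoma line, labelled as wild type, and all libraries came from this line alone. Control cells received vehicle (3 libraries), and the other group received 2 µM RSL3 for 24 h (3 libraries). The duration is not in the labels and was taken from the description of the experiment. RSL3 inhibits the lipid peroxide reductase GPX4. Poly(A) RNA was isolated from total RNA for the libraries, and reads were counted per gene. The labels number the replicates but do not say whether they came from separate cultures, so each p-value measures the spread between these libraries, which may be technical.

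Survival proteins of this family hold the killer proteins in check by binding them in a groove. Killer proteins are of different kinds. BAK1 is an effector that forms pores in the outer mitochondrial membrane and lets cytochrome c out, whereas BAD, BID, BIK, BMF and BCL2L11 (BIM) carry only the BH3 segment and act by engaging the groove or by switching the effectors on. Much of their control is by phosphorylation, cleavage and protein turnover, which RNA counts do not show. In glioblastoma, BCL-XL and MCL1 are widely studied as survival proteins. Ferroptosis, the death that RSL3 induces, runs through lipid peroxidation and is held to be separate from apoptosis.

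Of the 10 genes, 9 passed the filter on low counts and were tested, and BIK did not. Among the 9 tested, 2 were upregulated in RSL3-treated cells and none was downregulated at an adjusted p under 0.05 in edgeR's quasi-likelihood test. Both, BCL2L1 and BCL2L2, are survival genes. The increases were small, at 1.11-fold and 1.15-fold. Of all 16105 genes tested, 25.6% were called in either direction and 12.9% were called higher, so that 2 of 9 is near the background share. Of the 5 killer genes tested, 0 were called by edgeR, and 1 (BAD) had an unadjusted p under 0.05. DESeq2 also called 0 of them, with 0, 1 or 2 surrogate variables. With GC content offsets in edgeR, 1 of them (BAD) was called lower (adjusted p = 0.0267). The RNA is from whole cultures, so fewer cells with a transcript and less transcript per cell cannot be told apart.

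**Figure D1:**
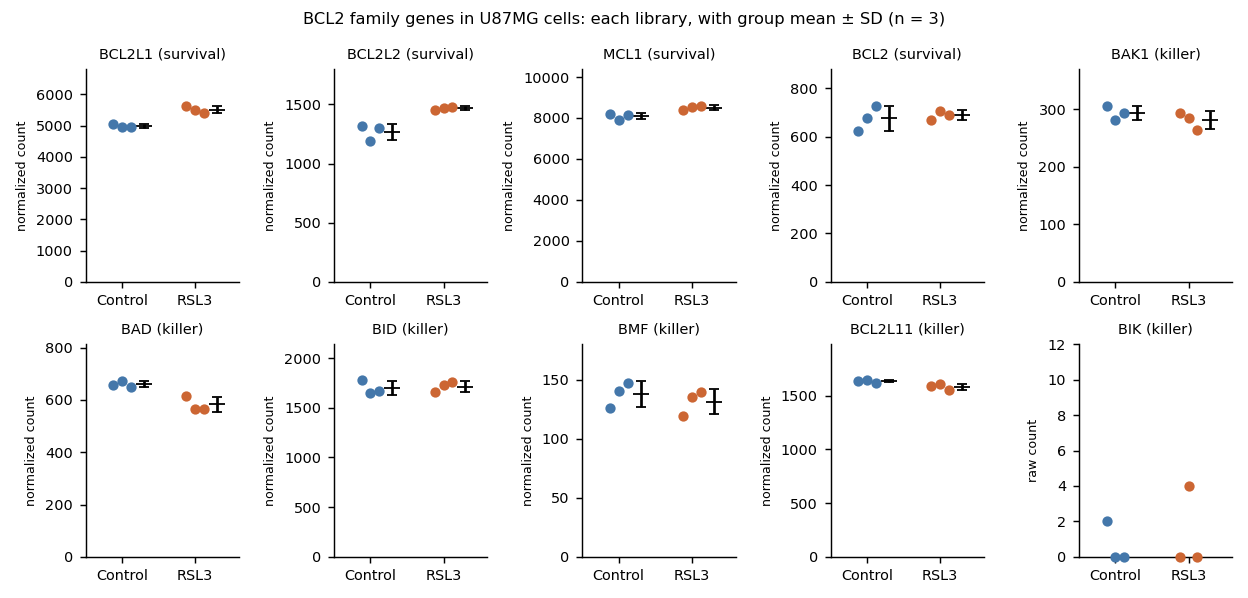
Normalized counts (raw counts for BIK) of the 10 genes in each of the 6 U87MG libraries, with control libraries in blue and RSL3 libraries in orange, and with the group mean ± SD (n = 3) as black marks except for BIK. The RSL3 libraries lay wholly above the control libraries for BCL2L1, BCL2L2 and MCL1 and wholly below them for BAD and BCL2L11, whereas in the remaining panels the groups overlapped.

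Windows of 250 bases upstream of the annotated start were taken from the RefSeq promoter table (GRCh38.p14), which matched 7 of the 10 genes. BCL2L2, MCL1 and BIK have no entry. The windows shown belong to the genes whose libraries separated between the groups and that have an entry. They are read 5′ to 3′ on the strand of the gene, and capitals mark a match, on either strand, to 1 of 5 short motifs. These were the CRE letters TGACGTCA, the antioxidant response letters TGACNNNGC, the AP-1 letters TGANTCA, the FOXO letters GTAAACA and the E-box letters CACGTG. The antioxidant response and AP-1 letters can overlap where a TGAC is shared. A sixth motif, the GC box gggcgg, was counted but left in lower case.
BCL2L1, start 1, minus strand, chr20:31723964-31724213: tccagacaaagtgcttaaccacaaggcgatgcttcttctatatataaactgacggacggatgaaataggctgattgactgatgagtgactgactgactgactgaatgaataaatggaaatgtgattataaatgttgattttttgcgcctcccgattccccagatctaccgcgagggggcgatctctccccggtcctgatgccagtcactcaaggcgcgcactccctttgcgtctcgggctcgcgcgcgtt
BCL2L1, start 2, minus strand, chr20:31722869-31723118: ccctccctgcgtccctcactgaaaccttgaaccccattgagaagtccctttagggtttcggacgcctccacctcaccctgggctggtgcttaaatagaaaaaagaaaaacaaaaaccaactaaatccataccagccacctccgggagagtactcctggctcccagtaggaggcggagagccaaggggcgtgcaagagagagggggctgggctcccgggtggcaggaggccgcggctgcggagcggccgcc
BAD, start 1, minus strand, chr11:64284705-64284954: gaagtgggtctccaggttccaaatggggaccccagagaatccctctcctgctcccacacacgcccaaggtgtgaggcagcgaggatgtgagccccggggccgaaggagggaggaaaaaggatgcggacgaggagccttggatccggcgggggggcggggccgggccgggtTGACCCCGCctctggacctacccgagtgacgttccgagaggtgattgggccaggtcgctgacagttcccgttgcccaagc
BCL2L11, plus strand, chr2:111120664-111120913: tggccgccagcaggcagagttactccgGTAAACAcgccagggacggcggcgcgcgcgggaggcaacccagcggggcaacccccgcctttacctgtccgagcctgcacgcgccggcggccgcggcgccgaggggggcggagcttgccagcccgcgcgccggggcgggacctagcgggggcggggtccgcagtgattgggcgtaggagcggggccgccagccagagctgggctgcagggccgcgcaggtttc

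Neither BCL2L1 window held any of the 6 motifs. The table has a second start for BAD, whose window overlaps the one shown and is not printed. The BAD windows held the antioxidant response letters as TGACCCCGC, beginning 80 bases before start 1 and 119 bases before start 2, a motif found in 10.9% of all 35116 windows of this length. Each also held 1 GC box, a motif found in 42.6% of windows. The BCL2L11 window held GTAAACA, beginning 223 bases before the start, which 2.98% of windows share, and 3 GC boxes. These matches describe letters in a window and say nothing of a factor bound there.

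BCL2L1 encodes BCL-XL, a survival protein of the outer mitochondrial membrane that binds both effectors and BH3-only proteins. The gene (ENSG00000171552) maps to GRCh38 chromosome 20 (31664452 to 31723989, minus strand), and positions of the other genes are given in the same way. Its normalized count, scaled to the mean library size, was 5055, 4948 and 4954 in control replicates 1, 2 and 3, and 5636, 5498 and 5413 in RSL3 replicates 1, 2 and 3. All 3 RSL3 libraries were above all 3 control libraries. The mean rose from 4985 ± 60.3 (SD, n = 3) to 5516 ± 112 (SD, n = 3), which is 0.15 ± 0.032 on the log2 scale (SE, edgeR adjusted p = 0.00164). The change had a 95% interval of 1.06-fold to 1.16-fold. It was called with each library left out in turn, with adjusted p up to 0.0163. The antisense gene ABALON covers 41.3% of the exon bases of BCL2L1. ABALON itself had between 51 and 101 raw counts per library and was not called (log2 fold change -0.24, edgeR adjusted p = 0.486), and reads in the shared bases cannot be assigned without strand.

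BCL2L2 encodes BCL-W, a close relative of BCL-XL. It maps to chromosome 14 (ENSG00000129473, 23298790 to 23311751, plus strand). Control libraries held 1314, 1189 and 1300 normalized counts, and RSL3 libraries held 1451, 1468 and 1482. The lowest RSL3 library was above the highest control library. The mean rose from 1268 ± 68.8 (SD, n = 3) to 1467 ± 15.5 (SD, n = 3), which is 0.21 ± 0.049 on the log2 scale (SE, edgeR adjusted p = 0.00324) with a 95% interval of 1.08-fold to 1.24-fold. Of the 10 genes this was the largest fitted increase, and it was called with each library left out in turn, with adjusted p up to 0.0198. Other genes cover 24.8% of its exon bases, of which the readthrough gene BCL2L2-PABPN1 covers 16.8% on the same strand. The readthrough gene was assigned between 4 and 17 raw counts per library.

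MCL1 encodes a survival protein of short half-life. Its gene maps to chromosome 1 (ENSG00000143384, 150560895 to 150579738, minus strand). Normalized counts were 8188, 7922 and 8167 in control libraries and 8383, 8522 and 8601 in RSL3 libraries. The groups did not overlap, but the gap between them was small beside their means of 8092 ± 148 and 8502 ± 110 (SD, n = 3 each). The log2 fold change was 0.071 ± 0.030 (SE), and edgeR gave an adjusted p of 0.0891, so MCL1 was not called. The 95% interval ran from 1.01-fold to 1.10-fold. MCL1 passed the threshold when offsets for GC content were applied (adjusted p = 0.0178), and the cause was not tested.

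BCL2, the survival gene that gives the family its name, maps to chromosome 18 (ENSG00000171791, 63123346 to 63320128, minus strand). It held 623, 679 and 726 normalized counts in control libraries and 669, 707 and 692 in RSL3 libraries. The RSL3 libraries lay within the range of the controls. The fitted log2 fold change was 0.031 ± 0.071 (SE, edgeR adjusted p = 0.803), with a 95% interval from 0.923-fold to 1.13-fold, and without control replicate 1 it was -0.028. A change within these bounds was not detectable with the spread between these libraries.

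BAK1, the effector among the killer genes, maps to chromosome 6 (ENSG00000030110, 33572547 to 33580293, minus strand). Its libraries held 306, 282 and 293 normalized counts in control cells and 294, 285 and 264 in RSL3-treated cells. The groups overlapped. The log2 fold change was -0.068 ± 0.099 (SE, edgeR adjusted p = 0.680), and the interval from 0.827-fold to 1.10-fold was wide because each library held only between 229 and 389 reads of the gene.

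BAD is a BH3-only protein that growth factor signalling inactivates by phosphorylation. Its gene maps to chromosome 11 (ENSG00000002330, 64269830 to 64284704, minus strand). Control libraries held 659, 672 and 649 normalized counts, and RSL3 libraries held 615, 567 and 566. All RSL3 libraries were below all control libraries. The means were 660 ± 11.4 and 583 ± 28.0, respectively (SD, n = 3 each). The log2 fold change of -0.18 ± 0.069 (SE) had an edgeR adjusted p of 0.0632, so BAD was not called, and its interval ran from 0.799-fold to 0.976-fold. With GC content offsets the adjusted p was 0.0267. GPR137, read from the opposite strand, covers 23.7% of the exon bases of BAD. GPR137 was itself downregulated by a like amount (log2 fold change -0.18, edgeR adjusted p = 0.00251), and its part in the count of BAD was not tested.

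BCL2L11 encodes BIM, which binds every survival protein of the family. It maps to chromosome 2 (ENSG00000153094, 111119378 to 111168444, plus strand). Normalized counts were 1636, 1640 and 1621 in control libraries and 1586, 1603 and 1550 in RSL3 libraries. The groups did not overlap, yet the difference was only a few percent. The log2 fold change was -0.047 ± 0.043 (SE, edgeR adjusted p = 0.476), with an interval from 0.910-fold to 1.03-fold. The opposite strand gene MIR4435-2HG covers 10.8% of its exon bases and was upregulated (log2 fold change 0.58, edgeR adjusted p = 2.61e-07).

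BID, which caspases cleave to link death receptors to mitochondria, maps to chromosome 22 (ENSG00000015475, 17734138 to 17774770, minus strand). It held 1776, 1651 and 1673 normalized counts in control libraries and 1655, 1728 and 1761 in RSL3 libraries. These ranges nearly coincided. The log2 fold change was 0.011 ± 0.045 (SE, edgeR adjusted p = 0.904), with an interval from 0.944-fold to 1.07-fold. The sign of this value turned without control replicate 2 (-0.0060) and without RSL3 replicate 3 (-0.0057).

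BMF, a BH3-only gene whose protein is held on the cytoskeleton, maps to chromosome 15 (ENSG00000104081, 40087890 to 40108892, minus strand). It was weakly expressed, with 126, 140 and 147 normalized counts in control libraries and 120, 135 and 140 in RSL3 libraries. The groups overlapped, and the interval of the change was the widest of the 9 genes, from 0.778-fold to 1.18-fold (log2 fold change -0.060 ± 0.14, SE, edgeR adjusted p = 0.816). Without RSL3 replicate 1 the value was 0.0016. BIK, a BH3-only gene of the endoplasmic reticulum on the plus strand of chromosome 22 (ENSG00000100290, 43110750 to 43129712), had 2, 0 and 0 raw counts in control libraries and 0, 4 and 0 in RSL3 libraries. No fold change is given for BIK, since it did not pass the filter on low counts.

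**Figure D2:**
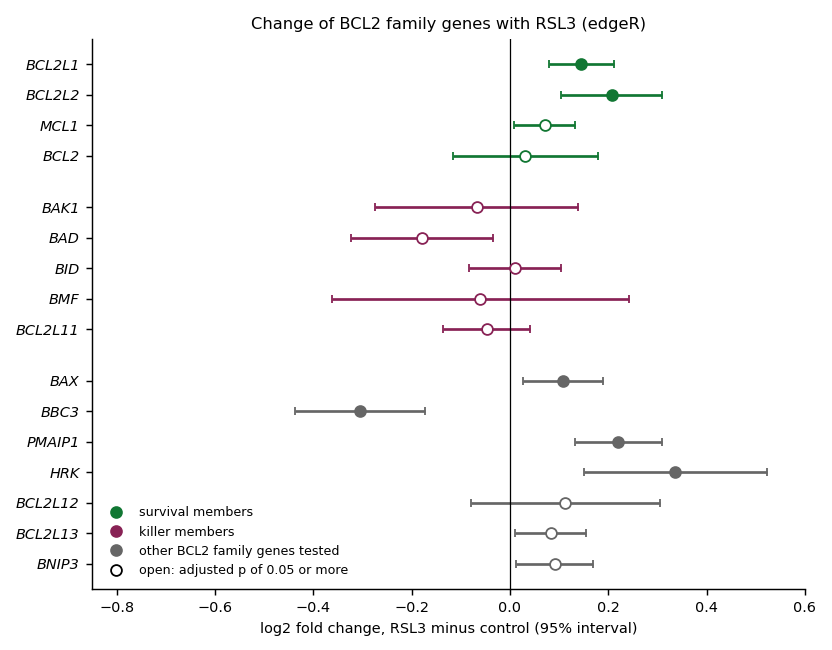
Fitted log2 fold change of RSL3 over control (points) with 95% intervals from edgeR for 4 survival genes (green), 5 killer genes (purple) and 7 further BCL2 family genes (grey), where filled points have an adjusted p under 0.05. BCL2L1 and BCL2L2 are the filled points among the survival genes, every killer point is open, and BBC3 is the filled point on the left.

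Survival and killer genes were then set against each other, as a description without a test, since the genes were chosen as a list. All 4 survival genes had fitted changes above 0, and 4 of the 5 killer genes tested had changes below 0. Of all 16105 genes tested, 7890 had changes above 0 and 8215 below 0. The signs of BCL2, BID and BMF turned when single libraries were left out. The median log2 fold change was 0.11 over the survival genes and -0.060 over the killer genes, against a median of -0.0044 over all genes tested. In 5 of the 9 genes the groups did not overlap, against 38.6% of all genes tested. RSL3 libraries were the higher in 3 of these and the lower in 2, against 19.3% of all genes for each direction. Within each library the mean log2 CPM (counts scaled to library size) of the killer genes was subtracted from that of the survival genes, a quantity that does not depend on library scaling. This difference was 2.02, 2.00 and 2.05 in control libraries and 2.20, 2.20 and 2.21 in RSL3 libraries. All RSL3 libraries were higher than all control libraries, with means of 2.21 ± 0.0072 and 2.02 ± 0.027 (SD, n = 3 each). The shift of 0.18 on the log2 scale drew mainly on BCL2L1, BCL2L2 and BAD, and only the first and second of these passed the test singly. It depends on which genes are counted as killers. With the killer genes BAX, PMAIP1, HRK and BBC3 of the wider family added, a choice made after their values were seen, the difference of the mean fitted changes was 0.11 in place of 0.18. The ratio of summed per-length levels was then below 1 and overlapped between the groups, at 0.669, 0.661 and 0.715 in control libraries and 0.691, 0.690 and 0.704 in RSL3 libraries.

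**Figure D3:**
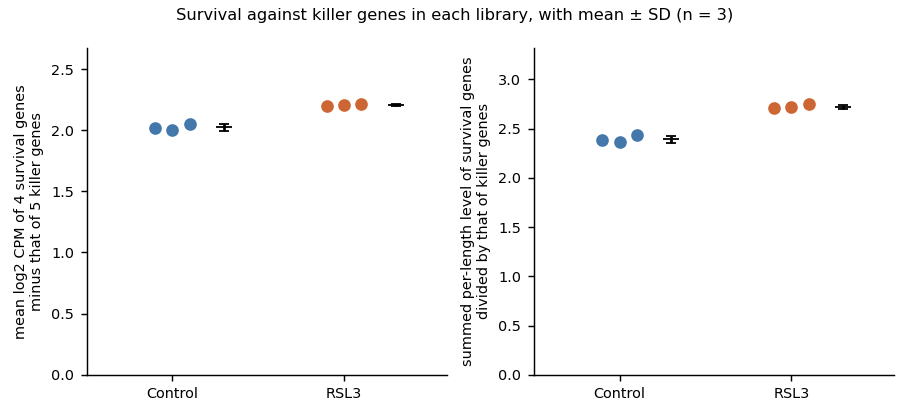
Survival genes against killer genes in each library, as the difference of mean log2 CPM (left panel, 4 survival and 5 killer genes) and as the ratio of summed per-length levels (right panel), with black marks for the mean ± SD (n = 3). The ratio lay between 2.37 and 2.43 in control libraries and between 2.71 and 2.75 in RSL3 libraries, but overlapped between the groups once BAX, PMAIP1, HRK and BBC3 were added to the killer genes (not drawn), and neither score was tested.

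To compare genes with each other, counts were divided by the length of the gene's exons in kilobases and scaled to the same sum in each library, as for TPM values. On this per-length scale MCL1 and BCL2L1 were the most abundant of the 10 genes, at 164 ± 5.03 and 150 ± 2.43 (SD, n = 3) in control cells, and their libraries did not overlap. BAD (48.7 ± 0.540) and BID (48.5 ± 1.75) followed, and their control libraries overlapped. Next came BCL2L2 (33.0 ± 2.09) and BCL2L11 (30.5 ± 0.374), which also overlapped. BAK1 (16.7 ± 0.725), BCL2 (6.76 ± 0.624) and BMF (3.19 ± 0.299) were lower in turn, with no overlap between neighbours, and BIK was last at 0 to 0.206. BCL2 itself was thus the least abundant survival transcript, below every killer gene but BMF and BIK.

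In RSL3-treated cells the order from MCL1 (174 ± 3.09) and BCL2L1 (167 ± 2.62) downward was kept for all but BID and BAD. BID (49.4 ± 1.80) then stood above BAD (43.4 ± 1.86) without overlap, and BCL2L2 (38.6 ± 0.588) stood above BCL2L11 (29.8 ± 0.492) without overlap. With the length of the longest transcript in place of all exon bases, BID was above BAD in control cells too (61.3 against 51.3), so the order of these 2 genes depends on the length used. Summed over the genes, the per-length level of the survival genes was 354 ± 9.76 in control and 387 ± 1.43 in RSL3-treated cells, and that of the killer genes was 148 ± 2.16 and 142 ± 0.872 (SD, n = 3 each). Among the killer genes BAD had by far the largest difference in level, from 48.7 to 43.4, and BAD was not called. Exon bases shared with other genes leave the levels of BCL2L1, BCL2L2 and BAD uncertain in particular.

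**Figure D4:**
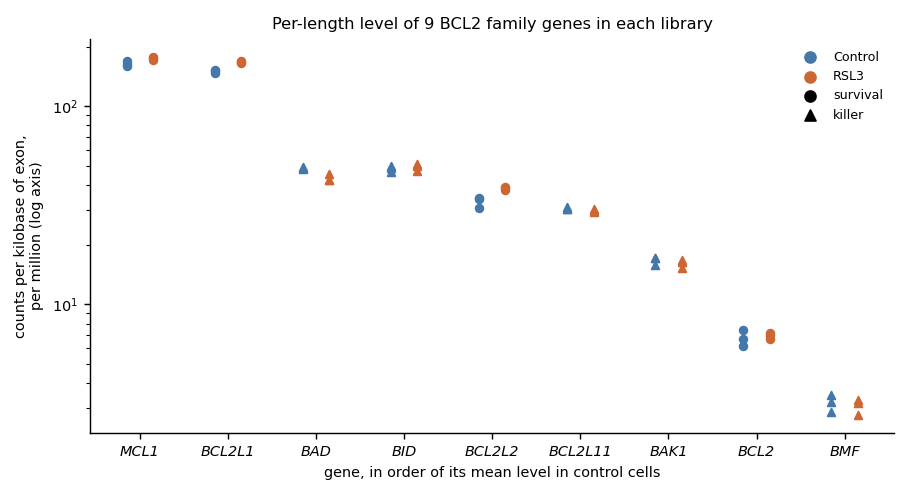
Per-length level, as counts per kilobase of exon scaled to the same sum in each library (log axis), for 9 of the 10 genes in each library, with control libraries in blue, RSL3 libraries in orange, circles for survival and triangles for killer genes. MCL1 and BCL2L1 stand near 150 or above, BCL2 near 7 and BMF near 3 in both groups. The spread from MCL1 to BMF far exceeds the differences between groups, whereas BAD (48.7) and BID (48.5) nearly coincide in control cells.

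A further 11 genes of the family were examined from a list. Of these, 7 passed the filter on low counts, 3 were upregulated and 1 was downregulated, that is 4 of 7 against 25.6% of all genes tested. BOK and BCL2L14 had fewer than 3 counts in every library. The BH3-only gene BBC3 (PUMA), a p53 target, fell in RSL3-treated cells. Its libraries held 858, 826 and 787 normalized counts in control cells and 674, 677 and 649 in RSL3-treated cells, without overlap (log2 fold change -0.31 ± 0.064, SE, edgeR adjusted p = 0.00107). PMAIP1 (NOXA), a BH3-only gene whose protein binds MCL1, rose. It held 3605, 3493 and 3206 normalized counts in control libraries and 4121, 4093 and 3798 in RSL3 libraries (log2 fold change 0.22 ± 0.043, SE, edgeR adjusted p = 0.00053). HRK, another BH3-only gene, rose from 424 ± 39.5 to 536 ± 44.7 (SD, n = 3 each; log2 fold change 0.34, edgeR adjusted p = 0.00734), a call lost in DESeq2 with 2 surrogate variables (adjusted p = 0.0720). BH3-only genes were therefore called in both directions. The effector gene BAX was called at the margin (log2 fold change 0.11, edgeR adjusted p = 0.0475). The call of BAX was lost without control replicate 1 (0.0629) or 3 (0.181), without RSL3 replicate 2 (0.0949) or 3 (0.173), with total counts as library sizes (0.0665), without a filter on low counts (0.0597), with GC content offsets (0.0763), and in DESeq2 (0.0716 to 0.239).

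On the per-length scale PMAIP1 was the most abundant of these, at 198 ± 8.49 in control and 233 ± 9.75 in RSL3-treated cells (SD, n = 3 each), above MCL1 in both groups. BAX stood at 133 ± 2.11 and 145 ± 5.78. With the length of the longest transcript, BAX (181 in control and 195 in RSL3-treated cells) stood above PMAIP1 (163 and 190). MCL1 was then at 160 and 169, so the rank of PMAIP1 depends on the length used. BBC3 stood at 32.6 ± 0.905 and 26.6 ± 0.565, close to BCL2L11 (30.5) in control cells. With the longest transcript as length these 2 genes were further apart there, at 40.1 and 28.4. HRK was low, at 7.79 ± 0.594 and 9.95 ± 0.808.

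Downstream of the mitochondrion, 11 of 11 genes of the caspases and the apoptosome were tested, with 1 called higher, 2 called lower and a median log2 fold change of -0.13. The 3 calls are 27.3% of the list, near the 25.6% of all genes tested. CASP2, an initiator caspase, was downregulated from 890 ± 16.4 to 709 ± 25.4 normalized counts (SD, n = 3 each; log2 fold change -0.33, edgeR adjusted p = 0.000311). CYCS, which encodes cytochrome c, was called lower (log2 fold change -0.097, edgeR adjusted p = 0.0297), and the call was lost without control replicate 1 (0.143) or 2 (0.0584) and without RSL3 replicate 1 (0.104) or 3 (0.100). It was also lost with GC content offsets (0.145, or 0.0626 with the replicate block) and in DESeq2 with 2 surrogate variables (0.136). DFFA, the inhibitor of the caspase-activated nuclease, was the gene called higher (log2 fold change 0.13, edgeR adjusted p = 0.0260), a call lost without control replicate 3 (0.143), without RSL3 replicate 1 (0.110) or 2 (0.0658), and in DESeq2 with 1 (0.0535) or 2 (0.180) surrogate variables.

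Among the caspase inhibitors and their antagonists, 8 of 9 genes were tested, with 2 called higher and 2 called lower. These are 50% of the genes tested in the list, against 25.6% of all genes tested (12.9% higher and 12.7% lower). The median log2 fold change was -0.096. XIAP, which blocks caspases directly, rose. Its normalized counts were 8946, 9580 and 9700 in control libraries and 10924, 11467 and 11080 in RSL3 libraries, without overlap (log2 fold change 0.25 ± 0.034, SE, edgeR adjusted p = 1.06e-05). BIRC6, a giant inhibitor of apoptosis protein, also rose (log2 fold change 0.16, edgeR adjusted p = 0.00543). BIRC3 (cIAP2), a known target of NF-kB, showed the largest change of any apoptosis gene in these lists. It held 180, 185 and 224 normalized counts in control libraries and 106, 119 and 97.9 in RSL3 libraries, which is -0.86 ± 0.14 on the log2 scale (SE, edgeR adjusted p = 0.000109). CFLAR, which encodes the caspase-8 inhibitor FLIP, was downregulated (log2 fold change -0.14, edgeR adjusted p = 0.0177), a call lost without control replicate 2 (0.0724) or RSL3 replicate 2 (0.113). The call of CFLAR was also lost in DESeq2 with 1 (0.0736) or 2 (0.187) surrogate variables and with GC content offsets (0.0752, or 0.0507 with the replicate block).

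Of 17 genes for binding partners and turnover of BCL2 proteins, 16 were tested, with 2 called higher and 3 called lower. These are 31.3% of the list, against 25.6% of all genes tested. BAG3, a co-chaperone that stabilizes survival proteins, rose from 2610 ± 64.3 to 3412 ± 250.2 normalized counts (SD, n = 3 each; log2 fold change 0.39, edgeR adjusted p = 1.31e-06). HUWE1, a ubiquitin ligase of MCL1, was called higher (log2 fold change 0.11, edgeR adjusted p = 0.0187), but not without control replicate 1 (0.109) or RSL3 replicate 2 (0.0895). YWHAQ and YWHAB, which encode 14-3-3 proteins that hold phosphorylated BAD in the cytosol, were downregulated (log2 fold changes -0.16 and -0.13, edgeR adjusted p = 0.00024 and 0.00176). The other 14-3-3 genes tested were not called and went in both directions, with log2 fold changes of -0.16, -0.093 and 0.076. VDAC1, an outer membrane channel, was called lower (log2 fold change -0.086, edgeR adjusted p = 0.0325), a call lost without any 1 of 5 of the libraries (adjusted p from 0.0615 without RSL3 replicate 1 to 0.128 without RSL3 replicate 2, with 0.0962 and 0.0651 without control replicates 1 and 2 and 0.0901 without RSL3 replicate 3). The call of VDAC1 was also lost without a filter on low counts (0.0519), with GC content offsets (0.104) and in DESeq2 with 2 surrogate variables (0.127). SFN had fewer than 3 counts in every library.

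Of 12 transcription factor genes known to control the family, 11 were tested, with none called higher by edgeR and 4 called lower. These 4 are 36.4% of the genes tested in the list. Of all genes tested, 12.9% were called higher and 12.7% lower. MITF, which activates BCL2 in melanocytes, had the largest change, from 449 ± 38.4 to 327 ± 25.4 normalized counts (SD, n = 3 each; log2 fold change -0.46, edgeR adjusted p = 0.000834). ATF4 fell less (log2 fold change -0.13, edgeR adjusted p = 0.00121). FOXO1 was called lower (log2 fold change -0.23, edgeR adjusted p = 0.0234), a call lost without control replicate 1 (0.0931) or 3 (0.0568) without RSL3 replicate 2 (0.0757) or 3 (0.0803), and in DESeq2 with 1 (0.0839) or 2 (0.204) surrogate variables. In the death receptor pathway 5 of 7 genes were tested, with 1 called lower (20% of these, against 12.7% of all genes tested) and none called higher by edgeR. FAS, a death receptor, fell from 1230 ± 54.6 to 1014 ± 56.0 normalized counts (SD, n = 3 each; log2 fold change -0.28, edgeR adjusted p = 0.000763), and FASLG had fewer than 3 counts in every library.

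**Figure D5:**
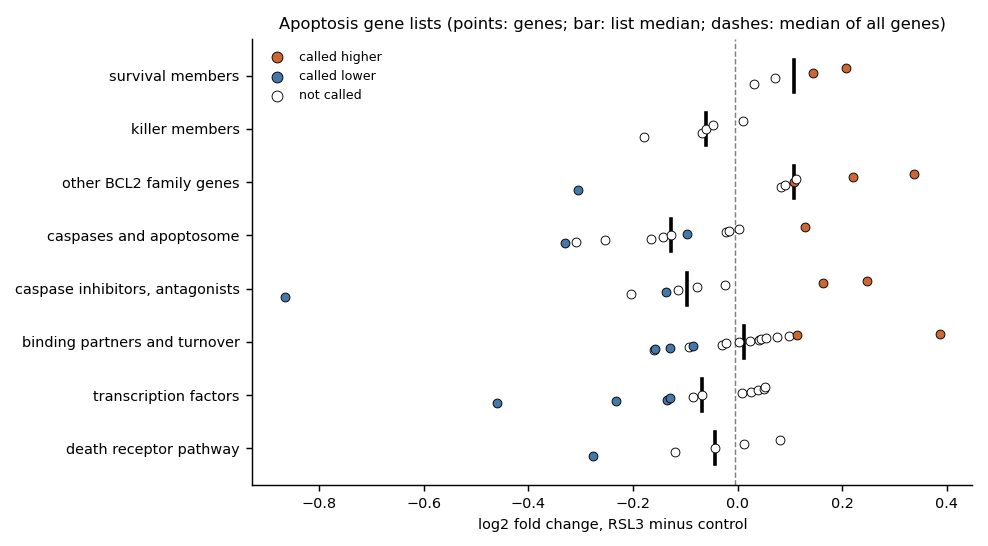
Fitted log2 fold change of RSL3 over control for each tested gene of 8 apoptosis lists (points, coloured by the edgeR call), with a black bar for the median of the list and a dashed line for the median of all genes tested. BIRC3 at -0.86 is the point farthest left and BAG3 at 0.39 the farthest right. The killer list has 0 of 5 tested genes called, against 25.6% of all genes tested, and the death receptor list has 1 of 5. BAD of the killer list was called lower when GC content offsets were applied (not drawn). The killer genes BAX, PMAIP1, HRK and BBC3 stand in the list of other BCL2 family genes.

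Total counts ranged from 27813462 to 43306335 over the 6 libraries, and TMM factors from 0.995 to 1.01. The first principal component held 39.1% of the variance and separated the groups. Of 10 glioblastoma and astroglial markers, 7 passed the filter, with VIM and CD44 abundant and S100B, SOX2 and PTPRZ1 at 2 counts or fewer in every library. Summed over the 10 markers, normalized counts ranged from 98688 to 100289 in control libraries and from 77970 to 81983 in RSL3 libraries. VIM, CD44 and CHI3L1 make up most of this sum and were called lower (log2 fold changes -0.29, -0.39 and -0.56). GFAP, NES and OLIG2 had changes above 0 (0.40, 0.25 and 0.13) and FABP7 below 0 (-0.97), and none of these was called. Of 13 markers of immune, endothelial, epithelial and neuronal cells, 4 passed the filter. The immune markers summed to at most 6.99 normalized counts in any library, with AIF1 and CD3E at 0. Endothelial markers summed to between 66.8 and 97.1 in control and between 29.1 and 50.9 in RSL3 libraries, epithelial markers to between 20.9 and 25.9 and between 8.05 and 26.0, and neuronal markers to between 1029 and 1116 and between 1128 and 1155. Of the endothelial markers only VWF passed the filter, and it fell (log2 fold change -1.33, edgeR adjusted p = 0.00111). The mean counts of PECAM1 and CDH5 did not fall. The neuronal sum hides opposite changes, since SYT1 rose (log2 fold change 0.24, edgeR adjusted p = 0.00214) and SNAP25 fell (log2 fold change -1.04, edgeR adjusted p = 4.84e-05). The part of these shifts in the results above was not tested.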

How the data were processed

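RNA of U87MG cells under vehicle or RSL3 was sequenced in 6 libraries, 3 per group, grouped by the treatment given in the labels. Per the labels and the study's methods, the authors used Trimmomatic 0.36 and Fastp for trimming, HISAT2 for alignment (GRCh38.p4) and HTSeq 0.6.1p1 to count exon reads per gene, ignoring strand. The annotation release is not given in the sources used here. The deposited values are raw counts without normalization, for 65988 identifiers, of which 56434 matched a symbol. Positions, exon lengths and overlaps come from GENCODE v44 on GRCh38, a later annotation than the authors' build, so overlaps describe the counts only as far as exons are shared.

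In R 4.3.3, edgeR 4.0.16 was run on all genes: filterByExpr (minimum count 10), TMM, no covariates, quasi-likelihood test and Benjamini-Hochberg adjustment over the 16105 genes kept. Intervals use the standard error and the degrees of freedom of that test and cover the spread between these libraries. Alternatives were other scalings and filters, DESeq2 1.42.0 with 0 to 2 surrogate variables (sva 3.50.0), GC content offsets, the replicate number as a block, each library left out, and other thresholds. Total counts ran from 27813462 to 43306335 per library. The members and the lists were chosen with earlier results of these data known. Named genes were all 10 members and, in each list, up to 3 called genes per direction with the smallest p, plus list genes under 3 counts in every library. The scripts were tested on simulated counts. A first criterion, on recovery of changed genes at all count levels, was missed because of weakly expressed genes, and it was then replaced by checks of bias, of the p-values of unchanged genes and of recovery among well counted genes, which were met.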

Additional observations from a re-analysis of the deposited data

How the results depend on the processing

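The number of genes called among all tested was 4123, and it became 2268 in DESeq2 with 2 surrogate variables, 2691 at an adjusted p under 0.01 and 768 when the log2 fold change also had to reach 0.5 in size. Of the BCL2 family genes, 2 were called, and 2 were called in 14 of the 18 alternatives. The count was 4 with GC content offsets and 4 with these offsets and the replicate number as a block, where MCL1 and BAD were added, and 0 with that minimum of 0.5. The causes were not tested. When single libraries were left out, the fold change of BCL2 ranged from -0.028 to 0.091, that of BID from -0.0060 to 0.045 and that of BMF from -0.13 to 0.0016 on the log2 scale, so these turned sign, and no other named gene did in any alternative. Over the named genes and these alternatives, 440 values kept their direction and side of the threshold, 73 lost the call, 5 gained it and 4 turned sign. The mean change of the survival genes minus that of the killer genes was 0.18 and ranged from 0.17 to 0.20 over the processing alternatives. It was 0.112 with BAX, PMAIP1, HRK and BBC3 among the killer genes, an alternative chosen after seeing the data.

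Replicate numbers are shared between the groups, but deviations from the group means correlated at only 0.022 to 0.0745 between libraries of the same number, and 5 of 6 libraries matched best with their own number. With the replicate number as a block, 4633 genes and 3 BCL2 family genes were called, MCL1 (adjusted p = 0.0425) being the third. Depth limits BMF, BAK1 and BIK most, at 104 to 160, 229 to 389 and 0 to 4 raw counts per library. GENCODE exon overlaps limit BCL2L1, BCL2L2 and BAD.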
